A study of Mus musculus with 550 samples.

Results

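The 8 genes described here carry or remove DNA methylation marks after they have been laid down. They are Dnmt1, Uhrf1 and Uhrf2, which serve the copying of methylation to new DNA strands, Tet1, Tet2 and Tet3, which oxidise methylated cytosine, Tdg, which excises the oxidised base, and Apobec1, a cytidine deaminase. They were chosen by name, for their function, from the 55228 gene rows of the table, and all 8 were found in it. The cells came from embryoid bodies (EBs), the clusters that stem cells form in suspension as they begin to differentiate, grown here from the E14 mouse embryonic stem cell line of the 129/Ola strain.

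The EBs were wild type (WT) or carried a homozygous knockout of Dnmt3a (3AKO) or of Dnmt3b (3BKO), the de novo DNA methyltransferases, and were taken after 3 or 9 days of differentiation. The knockouts were made in the stem cells, so every cell of a mutant EB carries the deletion, and the labels name no other treatment. Single live cells were sorted into 96-well plates after 50 EBs per clone had been pooled and dissociated, and read with a modified Smart-seq2 protocol, which covers whole transcripts and has no molecular identifiers. The labels do not say which clone a cell came from, so each genotype at each day was 1 sample, no p-value was computed, and all intervals below are 95% intervals that cover counting error only.

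Of 550 cells, 486 passed the filter (79 WT, 83 labelled 3AKO and 80 labelled 3BKO at day 3, and 89 WT, 88 3AKO and 67 3BKO at day 9). A kept cell had a median of 263902 reads (54720 to 1450202), and the 12 libraries, each of them 1 labelled batch of 1 group, summed to between 8071118 and 22867811 reads. The median share of mitochondrial reads per cell was 3.58% to 6.31% in the batch 1 libraries and 9.09% to 13.5% in the batch 2 libraries. The batch 2 library of 3BKO day 9 held 21 cells and was the deepest, at a median of 692321 reads per cell. Each day had its own plates and each genotype of day 9 its own plate, so plate cannot be told apart from day, nor at day 9 from genotype. At day 3 WT was alone on plate 209, and plates 210 and 211 each held both mutant labels. Plate therefore cannot be told apart from the contrast of mutant with WT there.

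The targeted genes were read first. At day 9, Dnmt3a was at 25.2 counts per 1000000 reads (CPM) in 3AKO against 166 in WT, and Dnmt3b was at 16.4 CPM in 3BKO against 167 in WT. In batch 1 of day 3, Dnmt3a was at 25.8 CPM in the library labelled 3AKO, 587 in the library labelled 3BKO and 455 in WT, and Dnmt3b was at 261 CPM, 167 CPM and 600.1 CPM in the same order. Dnmt3a thus followed the labels there, whereas Dnmt3b in the library labelled 3BKO was lowest of the batch but well above its day 9 level. The day 3 batch 2 mutant libraries went against their labels. There Dnmt3a was at 334.5 CPM in the library labelled 3AKO and 12.8 in the library labelled 3BKO, against 267 in WT, and Dnmt3b was at 85.1 CPM in the library labelled 3AKO and 185 in the one labelled 3BKO, against 523 in WT. Dnmt3a was thus high in both libraries of plate 210 and low in both of plate 211, whatever their labels. Day 3 mutant values are therefore given by their labels, and the batch 1 value stands beside each ratio that rests on them.

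DNMT1 is the maintenance methyltransferase: it restores methylation on the new strand behind the replication fork. UHRF1 binds hemimethylated CpG sites and brings DNMT1 to them, and UHRF2 is its paralogue. The TET dioxygenases oxidise 5-methylcytosine to 5-hydroxymethylcytosine and further to 5-formylcytosine and 5-carboxylcytosine, and thymine DNA glycosylase (TDG) removes those last forms so that base excision repair can put an unmethylated cytosine back. In embryonic stem cells TET1 and TET2 are the main TET enzymes. APOBEC1 is best known as the enzyme that edits the apolipoprotein B mRNA.

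Uhrf1 and Dnmt1 had the most similar levels over the 12 libraries of any pair among the 6 members read in 20% or more of the cells of each group, so their promoters are shown here. The RefSeq promoter table (GRCm38.p6) held 3 entries for Dnmt1, 2 for Uhrf1 and 1 for each of the other 6 members. The 250 bases before 1 start of each gene that overlap no annotated untranslated region are printed 5′ to 3′, Uhrf1 at chr17:56304063-56304312 on the plus strand and Dnmt1 at chr9:20952980-20953229 on the minus strand, with matches to TTTNNCGC (an E2F-type motif, searched on both strands) in capitals.
Uhrf1: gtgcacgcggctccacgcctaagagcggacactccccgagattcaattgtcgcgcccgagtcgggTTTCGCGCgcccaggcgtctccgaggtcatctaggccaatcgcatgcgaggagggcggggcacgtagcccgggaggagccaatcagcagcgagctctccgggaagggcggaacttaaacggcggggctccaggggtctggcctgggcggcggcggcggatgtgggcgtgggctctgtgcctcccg
Dnmt1: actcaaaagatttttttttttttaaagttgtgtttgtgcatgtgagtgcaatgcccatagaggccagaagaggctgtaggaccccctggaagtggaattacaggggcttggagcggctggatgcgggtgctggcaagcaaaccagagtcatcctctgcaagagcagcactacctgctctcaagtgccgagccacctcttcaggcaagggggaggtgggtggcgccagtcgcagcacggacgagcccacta
The Uhrf1 window held 1 match, 185 bases before the start, and 30 CG dinucleotides at 69.6% GC. The Dnmt1 window held no match and 7 CG dinucleotides at 54.8% GC. Among the other entries, the second Uhrf1 window held 1 match, and 10 CG dinucleotides at 59.6% GC. A Dnmt1 window that reaches into its annotated 5′ untranslated region held 2 matches that overlap each other, and 26 CG dinucleotides at 68.4% GC. The Dnmt1 window at the annotated gene start had 2 CG dinucleotides at 50.4% GC. The printed Dnmt1 window therefore does not stand for the other starts of that gene. No match was found in the windows of Uhrf2, Tet1, Tet2, Tet3, Tdg and Apobec1, nor in the remaining Dnmt1 window. Of all 32851 promoter windows of this length, 4.28% held a match, and the median window had 6 CG dinucleotides. A match describes these letters and is not a binding site.

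Uhrf1, on chromosome 17 (56303321 to 56323486, plus strand, GRCm38), gave the clearest pattern of the 8 genes: its level fell from day 3 to day 9 in every genotype. At day 3 its summed level was 312 and 198 CPM in the WT libraries of batch 1 and batch 2, 281 and 234 CPM in the libraries labelled 3AKO, and 302 and 227 CPM in those labelled 3BKO. At day 9 it was 105 and 65.6 CPM in WT, 84.3 and 105 CPM in 3AKO, and 78 and 47.8 CPM in 3BKO. The 6 day 3 libraries thus lay between 198 and 312 CPM and the 6 day 9 libraries between 47.8 and 105 CPM, with no overlap. The share of all genes tested whose libraries separate in this way was not counted. The same holds for the library orderings of Dnmt1, Tet1 and Tet2 below.

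**Figure D1:**
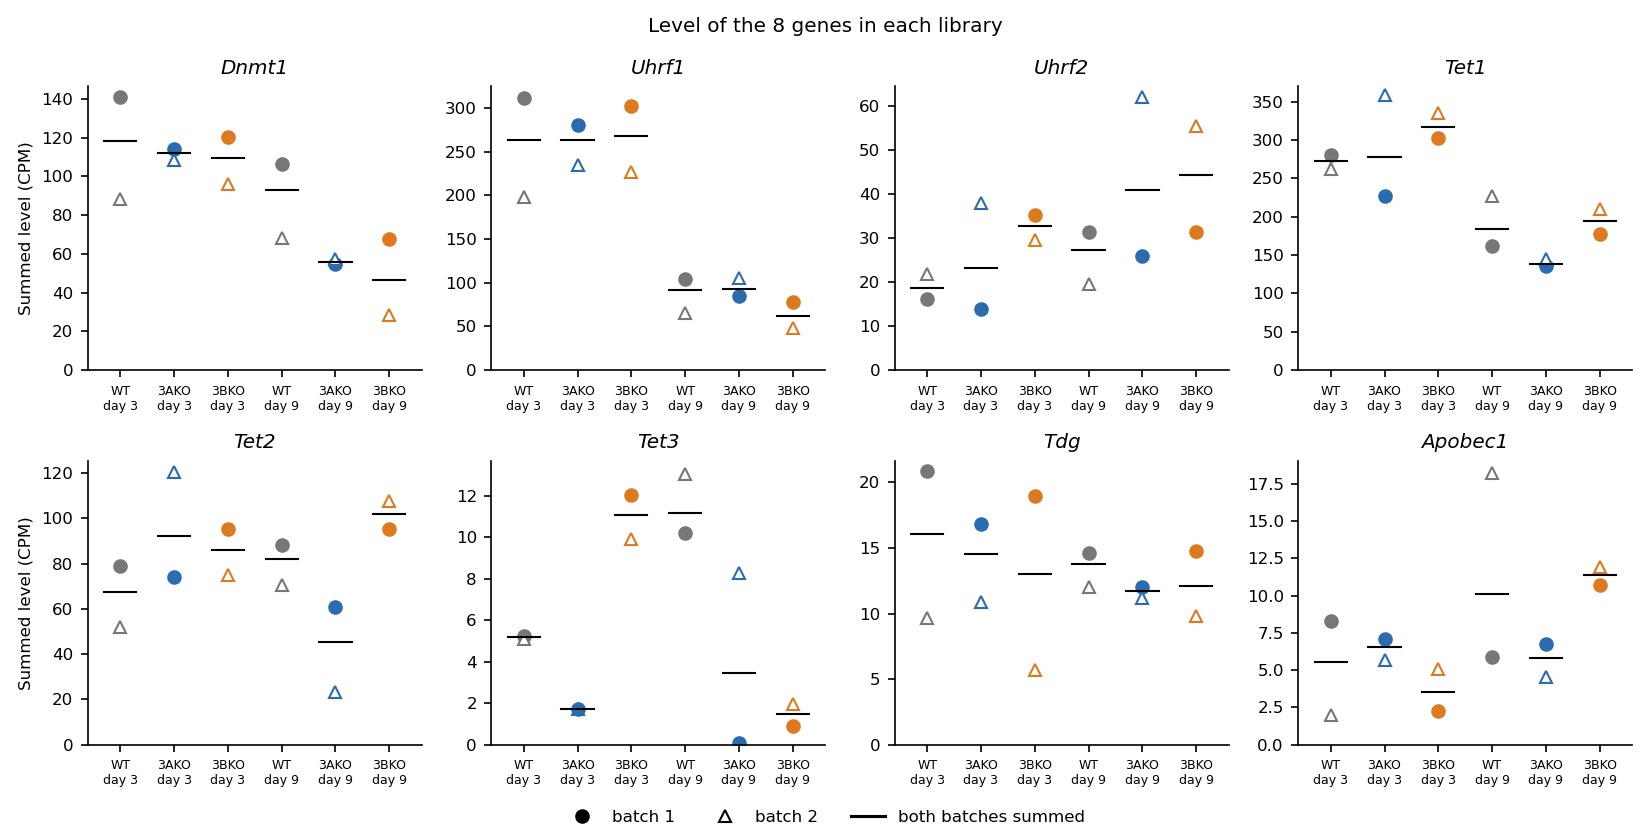
Summed level (CPM, linear axis from 0) of each of the 8 genes in the 12 libraries, with batch 1 as filled circles, batch 2 as open triangles and both batches summed as a line, by genotype label and day. The Uhrf1 libraries of day 3 (198 to 312 CPM) sit above those of day 9 (47.8 to 105 CPM), whereas the Tet2, Tdg and Uhrf2 ranges of both days overlap.

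A gene was counted as changed when the log2 ratio of (CPM + 1) had the same sign and a size of at least 1 (2-fold) in batch 1 and in batch 2, and when, in each batch, 20% or more of the cells in 1 of the groups compared had a read of it. By this rule Uhrf1 was the only 1 of 6 members tested that fell in WT from day 3 to day 9, where 2.19% of the 10162 genes tested fell and 5.25% rose. Its log2 ratio was -1.52 (interval of the CPM ratio -1.59 to -1.46), with -1.57 in batch 1 and -1.58 in batch 2. Only 1.46% of the genes tested had a lower ratio. The median ratio of all genes tested in WT was 0.19, and median-ratio size factors, which set that median to 0.00, gave Uhrf1 -1.72.

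In the mutants Uhrf1 fell as well. Between the day 3 libraries labelled 3AKO and day 9 3AKO its log2 ratio was -1.49 (-1.57 to -1.43), and it was the only 1 of 6 members tested to fall, beside 3.11% of 9945 genes that fell and 2.57% that rose. Batch 1 alone, where the targeted gene followed the label, gave -1.72, and batch 2 gave -1.15. That call did not hold when single-cell CPM values were averaged or when every cell was thinned to 50000 reads, although the ratio summed over both batches lay between -1.63 and -1.23 under the 10 alternatives that keep both. Between the day 3 libraries labelled 3BKO and day 9 3BKO the ratio was -2.10 (-2.19 to -2.04), with -1.94 in batch 1 and -2.22 in batch 2, beside 5.59% of 10042 genes that fell and 6.77% that rose. Tet3 was the other of 7 members tested to be called lower, but it entered the test only through its day 3 cells, where it was high, and the call was lost after thinning, so it adds nothing to the count.

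At day 9 itself Uhrf1 did not separate the genotypes. Its level was 92.8 CPM for 3AKO (89.01 to 96.8), 91.3 CPM for WT (88.1 to 94.5) and 61.8 CPM for 3BKO (59.04 to 64.7). Against WT, the 3AKO libraries gave log2 ratios of -0.31 (batch 1) and 0.67 (batch 2), with opposite signs. The ratio of 3BKO to WT was -0.42 and -0.45, below 0 in both batches and short of 2-fold, and 24.9% of all genes tested had a lower ratio. At day 3 the sums were 263 CPM in WT, 263 CPM in cells labelled 3AKO and 268 CPM in cells labelled 3BKO, and the batch 1 ratios to WT were -0.15 and -0.05.

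Dnmt1, on chromosome 9 (20907209 to 20959888, minus strand), was lower in both mutants than in WT at day 9. Its level was 106 and 68.2 CPM in the batch 1 and batch 2 libraries of WT, 54.6 and 57.1 CPM in 3AKO, and 67.7 and 28.2 CPM in 3BKO. All 4 mutant libraries lay below both WT libraries, and the gap was narrow, since the highest mutant library (67.7 CPM, batch 1 of 3BKO) nearly reached the lowest WT library (68.2 CPM, batch 2). How many of all genes tested show such an ordering was not counted. The counting intervals of the summed levels were apart, at 90.01 to 96.4 CPM for WT, 52.7 to 58.7 CPM for 3AKO and 44.1 to 49 CPM for 3BKO.

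By batch, the log2 ratio of Dnmt1 in 3AKO to WT was -0.95 and -0.25, and in 3BKO to WT it was -0.64 and -1.25. Neither comparison reached 2-fold in both batches, and no member did: 0 of 6 members tested were called in 3AKO against WT, beside 1.07% of 9201 genes higher and 1.59% lower, and 0 of 6 in 3BKO against WT, beside 2.86% of 9235 genes higher and 4.98% lower. Of all genes tested, 11.01% had a lower ratio than Dnmt1 in 3AKO against WT and 11.2% in 3BKO against WT. At a limit of 1.5-fold in both batches Dnmt1 was the 1 member that passed in 3BKO, where 12.5% of all genes tested passed lower and 7.51% higher, and no member passed in 3AKO (5.96% and 3.65%). Summed over both batches, the ratio lay between -0.85 and -0.39 in 3AKO and between -1.08 and -0.74 in 3BKO under the 10 alternatives that keep both.

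From day 3 to day 9 Dnmt1 was lower in each genotype, by less in WT than in the mutants. At day 3 it stood at 141 and 88.2 CPM in the WT libraries, 114 and 108 CPM in those labelled 3AKO and 120 and 96.1 CPM in those labelled 3BKO. The day 9 over day 3 log2 ratio was -0.34 in WT (-0.41 and -0.37 by batch), -0.995 in 3AKO by label (-1.05 and -0.91) and -1.22 in 3BKO by label (-0.82 and -1.73). The WT libraries of both days overlapped, whereas the mutant libraries of day 9 all lay below those of day 3. In batch 1 alone, where Dnmt3a followed the day 3 labels, the ratios were -0.41, -1.05 and -0.82. Whether they differ between genotypes was not tested.

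In single cells the lower Dnmt1 level went with fewer cells in which the gene was read. With every cell thinned to 50000 reads, which left no kept cell out, a Dnmt1 read was found in 94.9% of WT cells at day 3 (87.5 to 98.6, exact binomial) and 69.7% at day 9 (59.01 to 79). The day 9 share was 60.2% for 3AKO (49.2 to 70.5) and 46.3% for 3BKO (34 to 58.9). Without thinning it was 80.9%, 70.5% and 55.2% in WT, 3AKO and 3BKO. The median cell of day 9 had 65.1 CPM of Dnmt1 for WT, 31.8 CPM for 3AKO and 3.24 CPM for 3BKO, against 119 CPM in WT at day 3. In 3BKO the thinned share was 54.3% of 46 cells in batch 1 and 28.6% of 21 cells in batch 2 (11.3 to 52.2), so the deeper library gave the lower share.

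**Figure D2:**
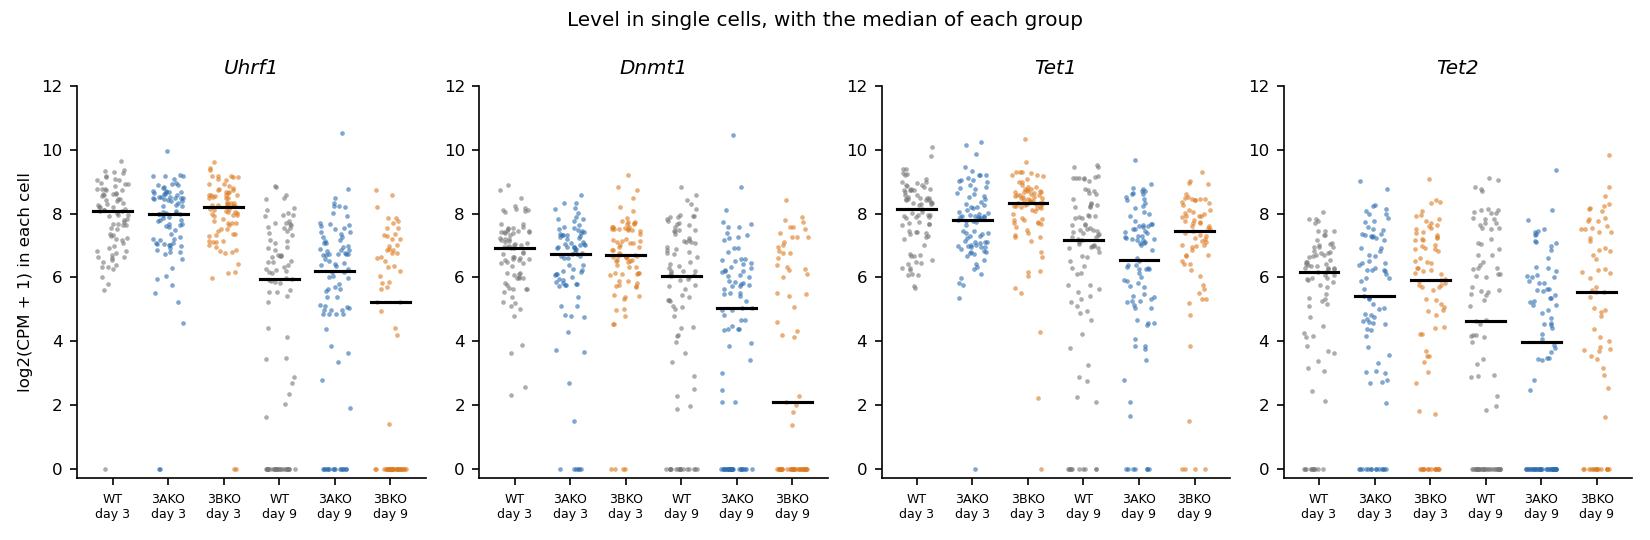
Level of Uhrf1, Dnmt1, Tet1 and Tet2 in each kept cell, as log2 of (CPM + 1), by genotype label and day, with the median of the group as a line. Points at 0 are cells without a read: for Dnmt1 these are 0 of 79 WT cells at day 3 and 30 of 67 3BKO cells at day 9, whose median is 3.24 CPM.

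Uhrf1 and Dnmt1 were also counted together in the same cells. At day 3, a read of both genes was found after thinning in 93.7% of WT cells (85.8 to 97.9), 83.1% under the label 3AKO and 88.8% under the label 3BKO, and batch 1 alone gave 98.1%, 84.5% and 90.7%. At day 9 this share was 49.4% for WT (38.7 to 60.2), nearly the same for 3AKO at 48.9% (38.1 to 59.8) and 23.9% for 3BKO (14.3 to 35.9). Cells with neither gene made up 0 of 79 WT cells at day 3 (exact interval 0 to 4.56%; 3 counts, the limit set for a count of 0, would be 3.8%) and 13.5%, 13.6% and 26.9% of the WT, 3AKO and 3BKO cells at day 9. The 3BKO cells with both genes were 15 of 46 in batch 1 and 1 of 21 in batch 2. Fewer genes of any kind were read per cell at day 9, and the same shares were not counted for other gene pairs of like level.

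**Figure D3:**
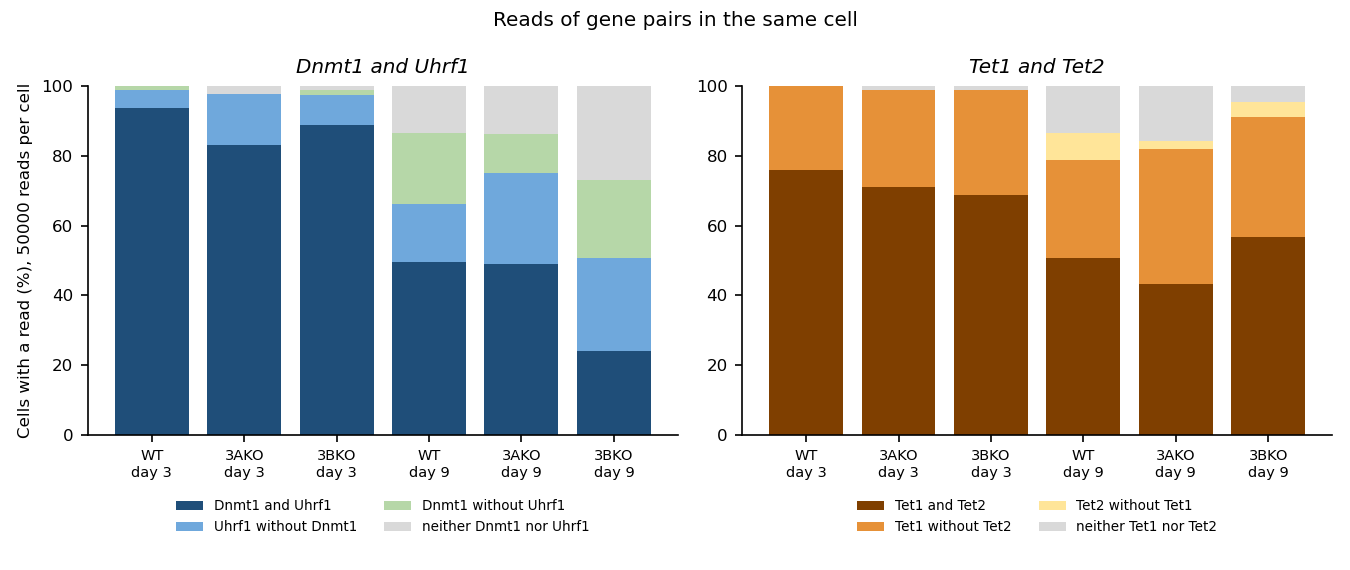
Share of kept cells (%, each cell thinned to 50000 reads) with a read of both, 1 or neither gene of a pair, by genotype label and day, for Dnmt1 with Uhrf1 and for Tet1 with Tet2. The bar of cells with both Dnmt1 and Uhrf1 drops from 93.7% in WT at day 3 to 49.4% in WT and 23.9% in 3BKO at day 9, and cells with both Tet genes make up 43.2% to 56.7% at day 9. Before thinning, the median cell had 7267 genes with a read in WT at day 3, and 5652 in WT and 5879 in 3BKO at day 9.

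Across cells within a group, Uhrf1 followed the S phase genes more closely than Dnmt1 did. Spearman's rho between Uhrf1 and the summed level of 27 S phase genes was 0.55, 0.48 and 0.45 in WT and the groups labelled 3AKO and 3BKO at day 3, and 0.32, 0.36 and 0.43 at day 9 (67 to 89 cells a group). For Dnmt1 the corresponding values were -0.05, 0.15 and 0.08 at day 3 and 0.12, 0.19 and 0.35 at day 9. Dnmt1 and Uhrf1 themselves correlated at 0.04 to 0.25. In batch 1 alone the day 3 values for Uhrf1 were 0.56, 0.57 and 0.56, and those for Dnmt1 were -0.06, 0.09 and 0.12 (54 to 58 cells). The day 9 values of batch 1 were 0.36, 0.42 and 0.50 for Uhrf1 and 0.09, -0.02 and 0.46 for Dnmt1 (46 to 61 cells). In 3BKO at day 9 the values of both genes in batch 1 were thus nearly equal. These are descriptions of cells that share a plate and differ in depth, and values this low in sparse counts are not read further. The S phase list summed to 7604 CPM in WT at day 3 and 6969, 5961 and 5728 CPM in WT, 3AKO and 3BKO at day 9, and its part in the Uhrf1 and Dnmt1 levels was not tested.

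Uhrf2, on chromosome 19 (30030513 to 30093722, plus strand), was scarce, and single cells carried much of its signal. It was read at 16.1 and 21.9 CPM in the WT libraries of day 3, 13.9 and 38.04 CPM in those labelled 3AKO, and 35.3 and 29.5 CPM in those labelled 3BKO. At day 9 it was at 31.5 and 19.6 CPM in WT, 25.9 and 62.2 CPM in 3AKO and 31.5 and 55.4 CPM in 3BKO, and the ranges of both days overlapped. The 2 highest libraries were the batch 2 libraries of the day 9 mutants. In 3BKO day 9, 1 cell held 40.8% of all Uhrf2 reads, and without the cell with the most reads in each library the log2 ratio to WT went from 0.68 to -0.08. In 3AKO against WT the batches gave -0.27 and 1.62. On a scale per kilobase of exon, Uhrf2 was read at 2.16 CPM per kb in WT at day 3, where Uhrf1 was at 61.7 and Dnmt1 at 16.

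Among the TET genes, Tet1 was the highest per length in every group, at 8.99 to 20.5 CPM per kb, followed by Tet2 at 2.68 to 6.05 and Tet3 at 0.089 to 0.671. Tet1 lies on chromosome 10 (62804570 to 62908996, minus strand). It stood at 281 and 263 CPM in the WT libraries of day 3, 227 and 359 CPM in those labelled 3AKO and 302 and 335 CPM in those labelled 3BKO. At day 9 it was at 162 and 227 CPM in WT, 135 and 144 CPM in 3AKO and 177 and 210 CPM in 3BKO. The highest day 9 library, WT batch 2 at 227.0 CPM, lay just below the lowest day 3 library, batch 1 labelled 3AKO at 227.3 CPM.

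The day 9 over day 3 log2 ratio of Tet1 was -0.56 in WT (-0.79 and -0.21 by batch), -0.997 in 3AKO by label (-0.75 and -1.31) and -0.70 in 3BKO by label (-0.76 and -0.68). All were below 0 in both batches and none met 2-fold in both. Summed over both batches, day 9 Tet1 was at 139 CPM for 3AKO (134 to 144), 184 CPM for WT (179.8 to 189) and 195 CPM for 3BKO (189.8 to 199.8). The ratio of 3AKO to WT was -0.26 and -0.65 by batch, and that of 3BKO to WT was 0.13 and -0.11, with opposite signs. After thinning, the share of day 9 cells with a Tet1 read was 78.7% in WT (68.7 to 86.6), 81.8% for 3AKO (72.2 to 89.2) and 91% for 3BKO (81.5 to 96.6), against 100% of 79 WT cells at day 3.

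Tet2, on chromosome 3 (133463679 to 133545139, minus strand), separated the mutants from each other at day 9. It was at 88.4 and 70.6 CPM in the WT libraries, 60.7 and 23.3 CPM in 3AKO and 95.5 and 108 CPM in 3BKO. Both 3AKO libraries lay below both WT libraries, and both 3BKO libraries lay above them. How many of all genes tested order their libraries like this was not counted. The log2 ratio of 3BKO to 3AKO was 1.16 (1.08 to 1.28), with 0.64 in batch 1 and 2.16 in batch 2, so it did not meet 2-fold in batch 1. It met 1.5-fold in both batches, as did 11.2% of the 9152 genes tested in that direction and 11.5% in the other, and 0 of 6 members tested met 2-fold, beside 4.56% higher and 4.91% lower. The cell with the most Tet2 reads held 16.8% of them in 3AKO and 14.8% in 3BKO.

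At day 3 Tet2 stood at 78.9 and 52.2 CPM in WT, 74.1 and 121 CPM in the libraries labelled 3AKO and 95.2 and 75.0 CPM in those labelled 3BKO. In batch 1 the ratios to WT were -0.09 for the label 3AKO and 0.27 for the label 3BKO. From day 3 to day 9 its ratio was 0.28 in WT, -1.01 in 3AKO by label and 0.24 in 3BKO by label, and the batch 1 values alone were 0.16, -0.28 and 0.0034. The label 3AKO value of -2.32 in batch 2 rests on a day 3 library whose label is in doubt. Thinned to 50000 reads, the share of day 9 cells with a Tet2 read was 45.5% for 3AKO (34.8 to 56.4), 58.4% for WT (47.5 to 68.8) and 61.2% for 3BKO (48.5 to 72.9), and these intervals overlap.

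Tet3, on chromosome 6 (83362373 to 83459084, minus strand), was near the limit of what these libraries could show. It was read at 5.25 and 5.08 CPM in WT at day 3, 1.71 and 1.73 CPM in the libraries labelled 3AKO and 12.03 and 9.94 CPM in those labelled 3BKO. At day 9 it was at 10.2 and 13.1 CPM in WT, 0.072 and 8.28 CPM in 3AKO and 0.926 and 1.97 CPM in 3BKO. Of the reads at day 9, 1 cell held 94.0% in 3AKO and 71.1% in 3BKO. Only 2.27% of 3AKO and 2.99% of 3BKO cells had a Tet3 read after thinning, against 11.2% of WT cells (5.52 to 19.7), and the mutant intervals (0.276 to 7.97 and 0.364 to 10.4) overlapped that of WT.

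Detection was too low for Tet3 to be tested against WT at day 9. It was tested from day 3 to day 9 under the label 3BKO, where it passed the detection limit through the day 3 cells, of which 33.8% had a read, and its log2 ratio was -2.28 (-2.76 in batch 1 and -1.88 in batch 2). That call was lost with every cell thinned to 50000 reads and with a pseudocount of 10 CPM, where the ratio was -0.88.

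**Figure D4:**
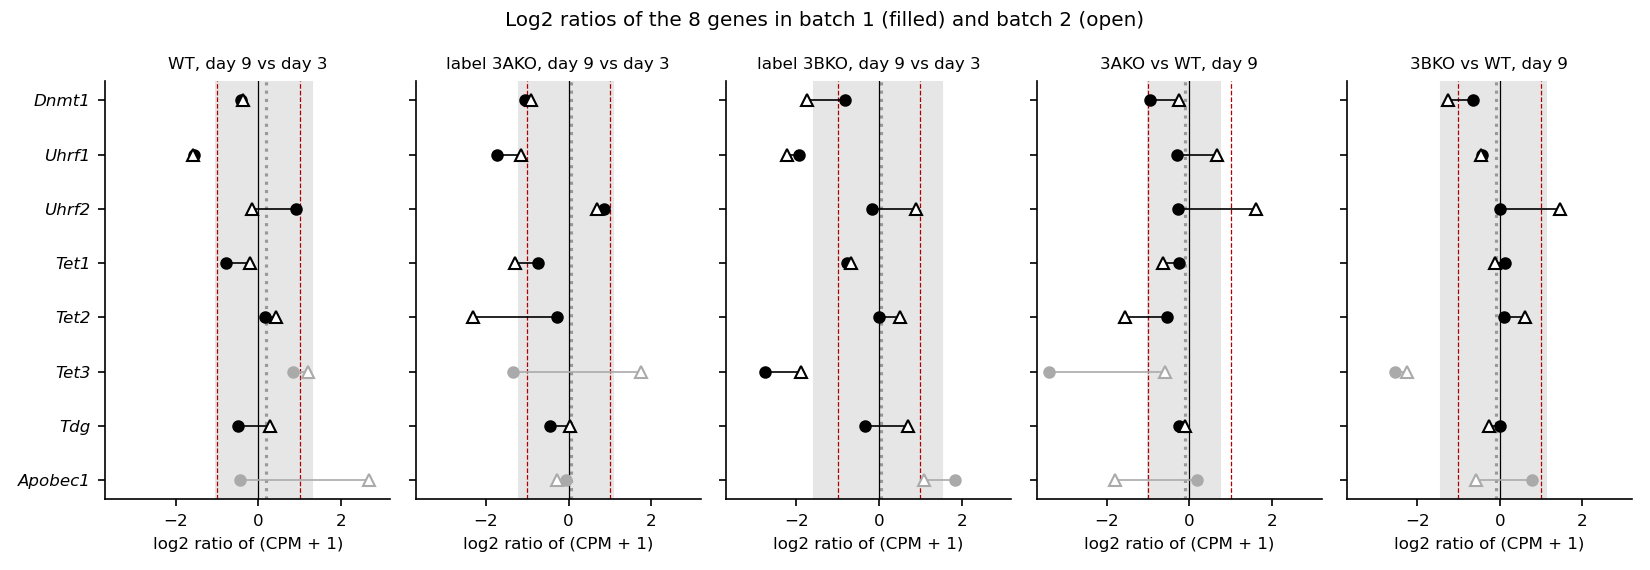
Log2 ratio of (CPM + 1) of the 8 genes in batch 1 (filled circles) and batch 2 (open triangles) for the change from day 3 to day 9 by genotype label and for each mutant against WT at day 9. Grey symbols mark genes below the detection limit, the shaded band holds the middle 90% of all genes tested, the dotted line is their median and the dashed lines mark 2-fold. Uhrf1 lies beyond 2-fold in both batches in the 3 day comparisons, and no black symbol pair does so in the comparisons of day 9.

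Tdg, the glycosylase, on chromosome 10 (82629828 to 82650799, plus strand), varied little between genotypes at day 9. Its level was 20.9 and 9.69 CPM in WT at day 3, 16.8 and 10.9 CPM in the libraries labelled 3AKO and 19 and 5.68 CPM in those labelled 3BKO. At day 9 it was 14.6 and 12.05 CPM in WT, 12.04 and 11.2 CPM in 3AKO and 14.7 and 9.85 CPM in 3BKO. Batch 2 was below batch 1 in all 6 groups. The summed levels of day 9 were 13.8 CPM for WT (12.6 to 15.04), 11.7 CPM for 3AKO (10.4 to 13.1) and 12.1 CPM for 3BKO (10.9 to 13.4). Tdg shares 367 exon bases (6.83%) with Glt8d2 on the opposite strand and a processed copy of it lies elsewhere in the genome, which leaves some doubt on its counts, although Glt8d2 itself was read at 0.389 CPM over all kept cells. Tet2 shares 43 exon bases with a gene model on the opposite strand.

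Apobec1, on chromosome 6 (122577792 to 122602444, minus strand), was found in few cells. After thinning it had a read in 7.59% of WT cells at day 3 (2.84 to 15.8) and 8.99% at day 9 (3.96 to 16.9), and in 7.95% of 3AKO (3.26 to 15.7) and 14.9% of 3BKO cells (7.40 to 25.7) at day 9. Its level ranged from 2.01 to 8.27 CPM over the libraries of day 3 and from 4.54 to 18.2 CPM over those of day 9. The WT libraries were both ends of the day 3 range, at 8.27 CPM in batch 1 and 2.01 CPM in batch 2, and at day 9 they read 5.86 and 18.2 CPM, the latter the highest. From day 3 to day 9 under the label 3BKO its log2 ratio was 1.85 in batch 1 and 1.09 in batch 2, from 2.24 and 5.07 CPM to 10.7 and 11.9 CPM, which is past 2-fold in both batches with detection in 10% of cells or no detection limit. The intervals of the shares overlap, 1 cell held 28.8% to 41.7% of the reads in the groups of day 9, and the gene was below the detection limit in all 8 comparisons.

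From day 3 to day 9 the median log2 ratio of the 6 members tested was -0.28 in WT and -0.996 in 3AKO by label. The medians of all genes tested were 0.19 and 0.05. Batch 1 alone gave -0.44 and -0.60, beside 0.16 and 0.09 over all genes. In WT, 3 of the 6 were below 0 in both batches and 1 was above, beside 2436 and 4511 of 10162 genes. No median is given for 3BKO by label, because Tet3 (-2.28) entered that test only through its day 3 cells, where it was high. The other 6 members under that label lay at -2.10, -1.22, -0.70, -0.09, 0.24 and 0.43, beside a median of 0.05 over all genes. The members were chosen with earlier results of these data known, so these values describe them and carry no test. At day 9 the median was -0.31 in 3AKO against WT and -0.05 in 3BKO against WT, beside -0.10 and -0.08 over all genes. At day 3, 0 of 6 members tested in the label 3AKO comparison with WT met 2-fold, beside 0.869% of 10362 genes higher and 0.347% lower, and 0 of 7 in the label 3BKO comparison, beside 0.664% of 10236 genes higher and 0.42% lower. At 1.5-fold in both batches, Uhrf1 was still the 1 member past the limit in WT from day 3 to day 9 (6.8% of genes lower, 15.2% higher). Under the label 3AKO the limit was passed by Dnmt1, Uhrf1 and Tet1, all lower, and by Uhrf2, higher (8.48% lower, 9.1% higher). Under the label 3BKO it was passed by Dnmt1, Uhrf1 and Tet1, all lower (12.1% lower, 14.5% higher). Tet3 was past it there as well, but it entered only through its day 3 cells and adds nothing. At day 3 no member passed 1.5-fold under the label 3AKO against WT (3.6% higher, 1.94% lower). Under the label 3BKO only Tet3 passed, as higher (3.15% higher, 2.02% lower). In batch 1 it met the detection limit only through the cells labelled 3BKO (38.9% with a read, against 16.7% in WT), so it adds nothing.

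The partners of the maintenance machinery, 19 genes that bind, load or modify DNMT1 and UHRF1 or work at hemimethylated DNA, mostly stayed within 2-fold. Of 16 tested, 0 passed 2-fold in either mutant against WT at day 9. Beside them, 1.07% of all genes tested were higher and 1.59% lower in 3AKO, and 2.86% and 4.98% in 3BKO. In WT, 1 of 16 fell from day 3 to day 9, beside 2.19% of all genes tested. It was Csnk2a1, a casein kinase subunit named after its values were seen, at -1.64. The median ratio of the partners at day 9 was -0.21 in 3AKO and 0.10 in 3BKO. The lowest in 3BKO was Lig1, the ligase that joins Okazaki fragments and is a methylated ligand of UHRF1, at 80.7 CPM against 190 CPM in WT (log2 ratio -1.22, with -0.997 and -1.10 by batch), just short of the limit in batch 1. Usp7, a deubiquitinase of UHRF1 and DNMT1, was at 187 CPM against 140 CPM (0.42), and Hdac1, a histone deacetylase, at 309 CPM against 231 CPM (0.42). In 3AKO the lowest was Kdm1a, a histone demethylase, at 39.7 CPM against 70.6 CPM (-0.81).

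Of the 15 genes that feed, bind or recruit the TET enzymes, 12 were tested at day 9. None passed in 3AKO (1.07% of all genes tested higher, 1.59% lower), and 1 rose in 3BKO, where 2.86% of all genes tested rose. It was Prdm14, a regulator of naive pluripotency that lowers DNA methylation in stem cells, at 120 CPM against 51 CPM in WT (log2 ratio 1.22, with 1.31 and 1.05). In 3AKO Prdm14 was at 25.8 CPM (-0.96, with -0.70 and -1.38). Ogt, the O-GlcNAc transferase bound by TET proteins, was at 50.1 CPM in 3AKO against 98.1 CPM in WT (-0.96). Sall4, a zinc finger protein of stem cells that binds oxidised methylcytosine, was at 287 CPM in 3BKO against 142 CPM in WT (1.004, with 0.98 and 1.31), short of the limit in batch 1. The median ratio of this list was -0.49 in 3AKO and -0.15 in 3BKO.

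In the base excision and deamination list of 21 genes, 15 were tested in each mutant against WT at day 9. Gadd45b was the 1 gene that rose in both, beside 1.07% of all genes tested in 3AKO and 2.86% in 3BKO. Gadd45b, a stress-induced gene of the GADD45 family linked to active demethylation, was at 6.81 CPM in WT, 16.01 CPM in 3AKO (log2 ratio 1.12, with 1.13 and 1.69) and 25.3 CPM in 3BKO (1.75, with 1.76 and 2.74). These comparisons share their WT cells. No gene of the list fell by the rule, beside 1.59% of all genes tested in 3AKO and 4.98% in 3BKO. Mbd4, the other thymine glycosylase acting at CpG sites, was at 16.4 CPM in 3AKO against 35.3 CPM (-1.07, with -1.30 and -0.72), and Neil3, a glycosylase of oxidised bases, was at 7.46 CPM in 3BKO against 45.5 CPM (-2.46, with -0.98 and -6.15). The list medians were -0.02 in 3AKO and -0.17 in 3BKO.

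Among the cell cycle genes at day 9, 0 of 27 S phase genes passed in 3AKO, where 1.07% of all genes tested rose and 1.59% fell. In 3BKO 2 fell and 0 rose, where 4.98% of all genes tested fell and 2.86% rose. Below 0 in both batches of 3BKO were 21 of the 27, beside 37.1% of all genes tested. Their median ratio was -0.22 in 3AKO and -0.43 in 3BKO. Dscc1, a subunit of a clamp loader, was at 6.80 CPM in 3BKO against 42.9 CPM in WT (log2 ratio -2.49), and Chaf1b, a chromatin assembly factor subunit named here after its values were seen, was at 69.01 CPM against 176 CPM (-1.34). None of the 22 G2 and M phase genes passed in either mutant, and their medians were -0.01 in 3AKO and 0.19 in 3BKO.

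The labelled cell type was set against its markers. Each group held reads of the epiblast genes Pou5f1 and Sox2, Pou5f1 at 294 to 368 CPM at day 3 and 85 to 110.05 CPM at day 9. Markers of mesoderm and endoderm were sparse, with a sum of 7 genes of 5.08 to 47.4 CPM over the libraries of day 3 and 17.1 to 72.1 CPM over those of day 9. T, a mesoderm regulator, was at 0 in both 3BKO groups, but at only 0.203 and 2.61 CPM in WT at day 3 and day 9. Mixl1 was at 0 in both WT groups. At day 9 Gata4, Gata6, Sox17 and Kdr were lower in 3BKO than in WT, as T was. Each of them was read in at most 4.49% of WT cells and 1.49% of 3BKO cells, so these differences rest on a few cells. Eomes went the other way, at 30.5 CPM in 3BKO (37.3% of cells with a read) against 12.1 CPM in WT (12.4%). The sum of 6 ectoderm genes was 143 to 354 CPM over the libraries of day 3 and 221 to 478 CPM over those of day 9. They went both ways in 3BKO against WT at day 9. Otx2 was at 231 against 133 CPM and Tubb3 at 162 against 120 CPM. Pax6 was at 6.47 against 25.1 CPM, Hes3 at 0.066 against 21.5 CPM, Sox1 at 0 against 5.51 CPM and Nes at 0 against 1.29 CPM. Sox2, kept here in the epiblast list, was used by the authors as an ectoderm marker. The sum of 5 fibroblast genes was at most 31.3 CPM in any library. The 7 epiblast genes summed to 4007 CPM in 3BKO at day 9 against 2639 CPM in WT and 2224 CPM in 3AKO, of which Zfp42 alone made 2269, 963 and 461 CPM. Members of that list went both ways in 3BKO against WT, with Nanog at 1004 against 561 CPM, Sox2 at 82.3 against 43 CPM, Lefty1 at 209 against 444 CPM, Utf1 at 331 against 471 CPM and Fgf5 at 2.11 against 61.1 CPM. The part of this cell make-up in the member levels was not tested.

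Genes with the most similar pattern were ranked for the 6 members read in 20% or more of the cells of each group, by Pearson's r of log2(CPM + 1) over the 12 libraries, among 6868 genes. Tet3 and Apobec1 were not ranked. For Dnmt1 the nearest were Txndc11 (0.97), Slc38a10 (0.96), Clspn (0.93), Bcar1 (0.93) and Snrpd3 (0.91), and for Uhrf1 they included Ap2a1 (0.97), Myo10 (0.96), Actb (0.95) and Ina (0.95). Tet1 lay nearest Irf2bpl (0.92), Tet2 nearest Stk35 (0.94), Tdg nearest Rrp7a (0.96) and Uhrf2 nearest Ccnl1 (0.86). Among the members, r was 0.87 between Dnmt1 and Uhrf1, 0.67 between Uhrf1 and Tet1, 0.52 between Dnmt1 and Tet1 and 0.48 between Tet1 and Tet2, and Uhrf2 correlated negatively with the other 5. The libraries share plates, batches and days, so these values describe likeness over the same 12 points and carry no test.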

How the data were processed

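The authors deposited 1 table of raw read counts per gene and cell, made from single-end 75-base reads. According to the submitters' processing notes they used FastQC 0.11.2, Trim Galore 0.5.0, STAR 2.7.1a on GRCm38.p6 (mm10) and featureCounts 1.6.1; whether counting used strand is not given in the sources used here. The table's other 26 columns, named as empty or mini-bulk wells and matched by no sample label, were not used.

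Cells with at least 50000 reads, 2000 genes and at most 50% mitochondrial reads were kept (486 of 550), with 1 cell sorted per well and no doublet caller run. Reads were summed over the cells of a group and batch and divided by the total of all genes to give counts per 1000000 (CPM). Intervals are exact Poisson for CPM, exact conditional for ratios and Clopper-Pearson for shares, at 95%. Ratios used log2(CPM + 1), and the detection limit, 2-fold limit and batch rule are given in the text. The rule was tried on simulated counts only at 1.5-fold, with changes planted in well read genes and no variation between the cells or batches of a group. That trial does not cover the 2-fold limit or the scarce members Uhrf2, Tet3, Tdg and Apobec1. Shares of cells used reads thinned to 50000 per cell (seed 7). Groups came from the labels, 1 sample per genotype and day, so no test was run, and none of the 550 columns were identical.

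The 8 members were chosen with earlier results of these data known, as were the 6 lists (107 genes) used beside them. From each list, the 2 highest and 2 lowest genes with the same sign in both batches in each mutant at day 9 could be named, and the genes most like each member, which were ranked to the fifth; the text gives some of them, and 1 is not reported here. Batch 1 medians and correlations across cells were added after seeing the data. Alternatives changed the cell filter, the summing, the denominator, the scaling (edgeR 4.0.16 TMM and DESeq2 1.42.0 size factors, in R 4.3.3), the pseudocount, the detection limit and the fold limit. Exon lengths came from GENCODE vM21 (GRCm38), and promoters from RefSeq. Scripts used Python 3.11.15, pandas 2.3.3, numpy 2.4.6 and scipy 1.17.1.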

Additional observations from a re-analysis of the deposited data

Results flagged for a closer look

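Tet2 was flagged, after its values were seen, because its ratios had opposite signs in different groups in both batches. The share of all genes tested with such signs is not given here. At day 9 its log2 ratio to WT was -0.85 in 3AKO (-0.53 and -1.56 in batch 1 and batch 2) and 0.31 in 3BKO (0.11 and 0.60). Both ratios share the WT cells, and the difference was not tested.

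From day 3 to day 9 the log2 ratio of Tet2 was 0.28 in WT (0.16 and 0.43 by batch) and 0.24 in 3BKO by label (0.0034 and 0.52), against -1.01 in 3AKO by label (-0.28 and -2.32). The batch 1 value of 0.0034 had a counting interval of -0.11 to 0.12, so it gives no direction. The batch 2 values of both mutants rest on day 3 libraries whose targeted genes went against their labels. The difference between the genotypes was not tested here either.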

How the results depend on the processing

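No count of members past 2-fold in both batches moved in 3AKO against WT at day 9 or in WT from day 3 to day 9 under any alternative. In 3BKO against WT at day 9 the count of 0 became 1 with detection in 10% of cells or with no detection limit (Tet3 lower) and 1 at 1.5-fold (Dnmt1 lower). In 3BKO against 3AKO it became 1 at 1.5-fold (Tet2 higher). At day 3, the label 3AKO count of 0 became 1 with detection in 10% of cells or with no limit (Tet3 lower), and the label 3BKO count of 0 became 1 without the top cell of each gene and 1 at 1.5-fold (Tet3 higher). From day 3 to day 9 the label 3AKO count of 1 became 2 with the stricter cell filter (100000 reads, 4000 genes, 25% mitochondrial reads) and without the top cell (Dnmt1 beside Uhrf1), 0 with averaged single-cell CPM and with cells thinned to 50000 reads, and 4 at 1.5-fold. The label 3BKO count of 2 became 1 when thinned and 1 with a pseudocount of 10 CPM (Uhrf1), 3 with no cell filter (Dnmt1 lower as well), 3 with detection in 10% of cells or with no limit (Apobec1 higher as well), and 4 at 1.5-fold. Where a detection limit applied, Tet3 and Apobec1 met it in at least 1 batch only through the group where they were higher. They therefore add nothing to these counts. No called ratio changed sign, and the causes were not tested.

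No paired analysis was possible because the labels give no replicate numbers and each genotype and day is 1 sample; batches were computed apart instead. The levels of Tet3, Apobec1 and Uhrf2 are the least certain, since a few cells hold much of their reads. The part of read depth in this was not tested. Plate, day and genotype cannot be told apart at day 9, nor at day 3 plate from the contrast of mutant with WT.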
